A study of Mus musculus with 30 samples.

Results

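Members of the microRNA (miRNA) families of miR-130 with miR-301 and of miR-148 were followed in mouse heart: mmu-miR-130a, mmu-miR-301a, mmu-miR-148a and mmu-miR-148b. They are 4 of the 1079 mouse miRNAs named on the array and 4 of the 306 that passed the filter on low signals. The rows were picked by name, and the 4 names were chosen by someone who knew measured values of these same arrays. Which values guided that choice is not recorded, so the differences and adjusted p-values of the members are given as descriptions and are not independent support for any pattern.

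The samples were heart sections holding both ventricles of female C57BL/6 mice, bought at 5 to 6 weeks of age. Each mouse received 1 intratracheal instillation of 162 µg Printex 90, a carbon black of nanosized particles, or of vehicle alone, and was killed 1, 3 or 28 days later. Both treatments shared the vehicle, 40 µl of 0.9% NaCl with 10% acellular lavage fluid from mouse lungs, and no group of mice without an instillation was analysed here. Signals were available for 6, 4 and 5 Printex 90 mice on days 1, 3 and 28, and for 4, 6 and 4 vehicle mice on the same days. Each mouse gave its own RNA and its own array. Days within a treatment differ in the age of the mice as well as in the time after instillation, and these cannot be told apart.

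A miRNA guides a silencing complex to messenger RNAs that pair with its seed, bases 2 to 8 from its 5′ end, so miRNAs with the same seed can share targets. A miRNA hairpin gives 2 arms, of which the guide usually accumulates and the other, written with a star in older names, is mostly degraded. In the heart and its vessels, miR-130a is known for promoting blood vessel growth in endothelial cells, and miR-301a is transcribed from an intron of the mitotic gene Ska2. The family of miR-148 and miR-152 is known for targeting the DNA methyltransferase Dnmt1, and miR-148a also for lowering the LDL receptor in liver.

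The array names match these mature sequences in RefSeq (GRCm38.p6), shown because the seeds define the families. Capitals mark the seed.
mmu-miR-130a: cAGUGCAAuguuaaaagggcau
mmu-miR-301a: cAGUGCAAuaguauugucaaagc
mmu-miR-148a: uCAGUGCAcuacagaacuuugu
mmu-miR-148b: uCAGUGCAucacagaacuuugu
mmu-miR-152: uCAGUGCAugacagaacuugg
mmu-miR-130b: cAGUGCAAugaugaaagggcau
mmu-miR-721: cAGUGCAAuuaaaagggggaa

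The seed of miR-130a and miR-301a is AGUGCAA, and that of miR-148a and miR-148b is CAGUGCA. The families are offset by a base: bases 1 to 7 of miR-130a and miR-301a read CAGUGCA, the same letters as bases 2 to 8 of the miR-148 members. In the 1679 mature mouse sequences of the RefSeq table, AGUGCAA is the seed of 7, of which 4 are named on the array, and CAGUGCA is the seed of 3, all of them on the array. RefSeq gave no 3′ arm sequence under the name miR-301b, which is also on the array, so that name is not counted. Positions are counted from the 5′ end, with the base of the first-named miRNA first. From miR-148a to miR-148b the changes are C9U and U10C, just past the seed, and the other 20 bases are the same. From miR-130a to miR-130b they are U11A and A13G. MiR-130a and miR-301a share their first 9 bases and differ at 10 of the 22 positions compared.

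The mature forms lie at chr2:84741116-84741137 (minus strand) for miR-130a, chr11:87113054-87113076 (plus) for miR-301a, chr6:51269829-51269850 (minus) for miR-148a and chr15:103285185-103285206 (plus) for miR-148b. The 4 members thus come from 4 chromosomes. Their hairpins are printed to show where the arm matched to each array name lies, in capitals. Names were matched to the 3′ arms by name alone, since probe sequences were not used here.
Mir130a: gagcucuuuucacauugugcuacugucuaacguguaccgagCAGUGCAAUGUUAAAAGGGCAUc
Mir301: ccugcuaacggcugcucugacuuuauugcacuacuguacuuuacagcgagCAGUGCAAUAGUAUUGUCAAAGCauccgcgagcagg
Mir148a: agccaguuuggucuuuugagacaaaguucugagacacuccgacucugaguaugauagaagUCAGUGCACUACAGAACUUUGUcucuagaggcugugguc
Mir148b: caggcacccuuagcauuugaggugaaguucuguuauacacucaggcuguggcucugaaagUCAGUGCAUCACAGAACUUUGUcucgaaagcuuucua

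The capitals stand in the 3′ arm of each hairpin. The array carried 15 names from the families: the 4 members, 4 relatives and 7 starred arms. A miRNA was taken as detected where at least 0.5 of the spots of 1 of its probes stood well above background. All 4 members and miR-152 were detected on 29 of 29 arrays. MiR-130b, miR-301b and miR-721 were detected on 0 arrays, and so were 7 of the 7 starred arms. The families were therefore seen in these hearts through 5 names, all matched to guide arms. Detection says nothing of the order of their amounts, since probes differ in brightness.

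Signals are given as log2 of the processed signal after arrays were brought to a common scale. Arrays had 18.4% to 27.5% of their spots well above background, 0 saturated spots, and 231 to 339 mouse miRNAs detected. The cardiomyocyte markers miR-1a, miR-133a, miR-133b, miR-208a-3p and miR-499 were detected on all 29 arrays. Before the results, 1 array has to be named. Printex 90 day 1 replicate 5 had miR-143 at 11.62 and miR-145 at 7.80, smooth muscle miRNAs that lay between 9.78 and 10.53 and between 6.27 and 7.16 on the other 28 arrays. It had 19.2% of its spots well above background. Under the scaling and fit used throughout, the Printex 90 day 28 minus day 1 differences of miR-301a, miR-143 and miR-145 are given with and without it. So is the Printex 90 minus vehicle difference of miR-301a on day 1. Other values that use the Printex 90 day 1 group include this array unless stated.

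Printex 90 and vehicle hearts differed little in any member. By limma, 0 of 4 members and 0 of 306 tested miRNAs (0%) had an adjusted p under 0.05 on day 1, on day 3, on day 28 or for the mean of the days. Without adjustment, 2, 1, 1 and 0 of the 306 had a p under 0.05. The largest of the 12 member differences on single days was that of miR-301a on day 1, 0.09 ± 0.08 (log2, SE), and it was 0.00 without Printex 90 day 1 replicate 5. The groups overlapped in all 12, a count that was not made for the other tested miRNAs. Smallest adjusted p-values of the members were 0.742 on day 1, 0.999 on day 3, 0.906 on day 28 and 0.994 for the mean of the days.

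The size of the exposure differences depended on the scaling. In these 3 days and their mean, the 95% intervals of the members ran from 0.83 to 1.20 on the fold scale, within a 1.5-fold change either way, under the scaling used throughout. Under quantile normalization the member estimates ran from -0.22 to 0.31 on the log2 scale and their intervals from 0.664-fold to 1.59-fold, and with no scaling the estimates ran from -0.24 to 0.18 and the intervals from 0.604-fold to 1.60-fold. With the 75th percentile over all probes the estimates ran from -0.20 to 0.21 and the intervals from 0.676-fold to 1.53-fold, and 0 members were called under any of these 3. Between 175 and 292 of the 306 tested miRNAs had an interval within 1.5-fold in these comparisons under the scaling used throughout. The members vary less between mice than most: their residual SDs were 0.14 for miR-130a, 0.12 for miR-301a, 0.13 for miR-148a and 0.10 for miR-148b, against a median of 0.27. The exposure difference itself differed between days for 0 of 4 members and 0 of 306 tested miRNAs (0%), and unadjusted p-values under 0.05 numbered 2, 3 and 1 in these comparisons of days.

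**Figure D1:**
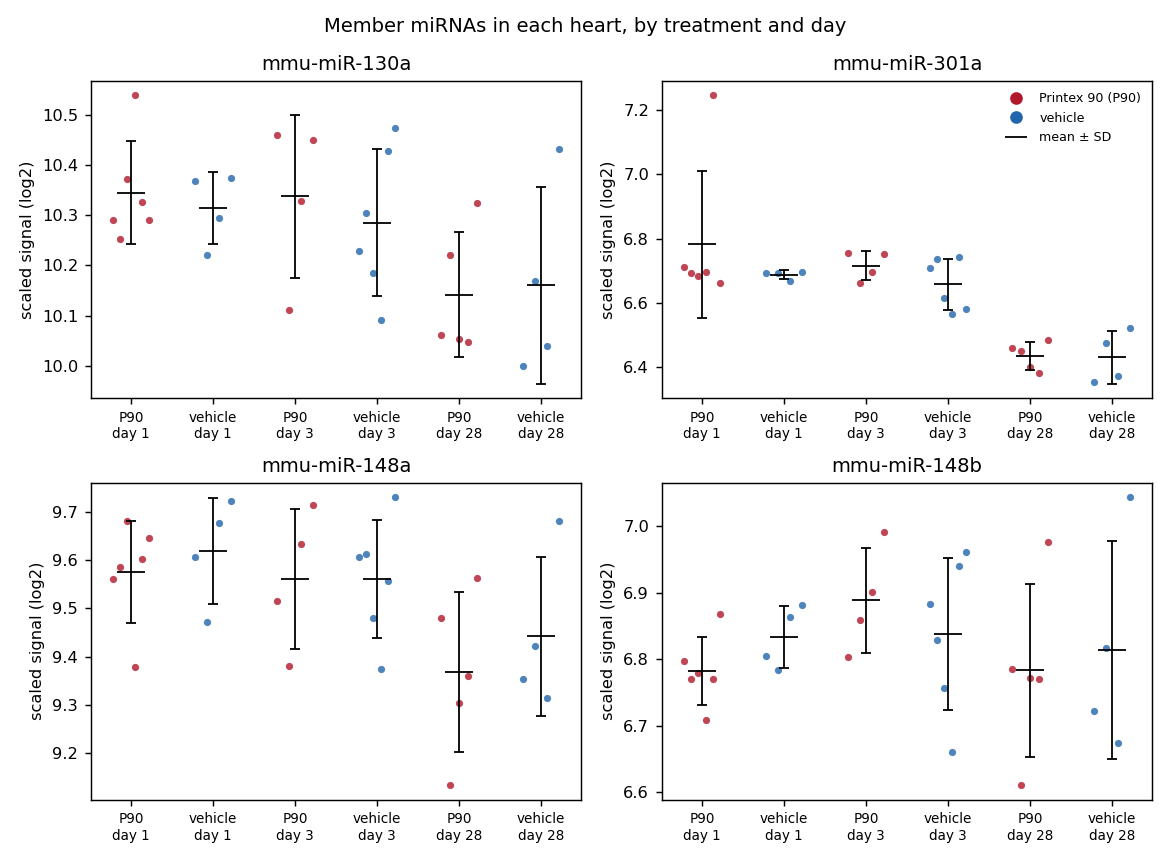
Scaled signal (log2) of each member on every array, by treatment and day, with the group mean and SD in black. For miR-301a the 9 day 28 hearts sit between 6.35 and 6.52, below the other 20, and 1 Printex 90 day 1 heart stands at 7.25.

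In miR-301a the late hearts stood below the early ones in both treatments. On day 1 the Printex 90 hearts had 6.71, 6.69, 6.68, 6.70, 7.25 and 6.66, with a median of 6.69, and on day 3 they had 6.75, 6.66, 6.70 and 6.75. On day 28 they had 6.46, 6.45, 6.40, 6.38 and 6.49. Vehicle hearts had 6.69, 6.69, 6.67 and 6.70 on day 1. On day 3 they ran from 6.57 to 6.74, with a median of 6.66, and on day 28 they had 6.35, 6.48, 6.37 and 6.52. The 9 day 28 hearts of both treatments thus lay at 6.35 to 6.52, and the 20 hearts of days 1 and 3 at 6.57 to 7.25, with no overlap.

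Of the 306 tested miRNAs, 2 (0.654%) had every day 28 array below every array of days 1 and 3, and 0 (0%) had every day 28 array above. The other of the 2 was miR-208b, a miRNA carried by the slow myosin gene Myh7, with 4.04 to 4.69 on day 28, where 4.04 is the floor set for low signals, and 4.70 to 5.60 on days 1 and 3. Without Printex 90 day 1 replicate 5 the count was 2 as well.

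In Printex 90 hearts, miR-301a averaged 6.44 ± 0.04 on day 28 (SD, n = 5) and 6.78 ± 0.23 on day 1 (n = 6), a difference of -0.35 ± 0.08 (log2, SE), or 0.786-fold with a 95% interval of 0.704 to 0.878. Its adjusted p was 0.0215 by limma over 306 miRNAs, and 1 of 4 members was called, miR-301a itself, beside 4 of 306 (1.31%). Without replicate 5 of day 1 the difference was -0.25, with an adjusted p of 0.00264, and 2 of 306 were called. The call was lost without day 28 replicate 2, 3 or 4 (adjusted p of 0.0512, 0.0777 and 0.054), and it was also lost under 6 other ways of processing. These were the 75th percentile over all probes (adjusted p = 0.664), quantile normalization (0.158), no scaling (0.992), normexp background correction (0.894), the submitters' value table (0.401) and a fit on the groups compared alone (0.574).

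Against day 3 (6.72 ± 0.04, n = 4), the day 28 difference in Printex 90 hearts was -0.28 ± 0.09 with an adjusted p of 0.311 by limma, and 0 of 4 members were called beside 1 of 306 (0.327%). In vehicle hearts, miR-301a averaged 6.43 ± 0.08 on day 28 (n = 4), 6.69 ± 0.01 on day 1 (n = 4) and 6.66 ± 0.08 on day 3 (n = 6). The vehicle differences were -0.26 ± 0.09 for day 28 minus day 1 and -0.23 ± 0.08 for day 28 minus day 3, with adjusted p-values of 0.294 and 0.271. Of the members, 0 were called in either, beside 6 of 306 (1.96%) and 2 of 306 (0.654%). In the order of the 6 means, from Printex 90 day 1 at the top through Printex 90 day 3, vehicle day 1, vehicle day 3 and Printex 90 day 28 to vehicle day 28, neighbours differed by more than the larger SD of the pair only at the step of 0.22 between vehicle day 3 and Printex 90 day 28. Without replicate 5 the Printex 90 day 1 mean was 6.69 ± 0.02 (SD, n = 5), below that of Printex 90 day 3, and that step was again the only one.

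Whether miR-301a was called in those 3 comparisons turned on 1 array, which belonged to none of the groups compared. Without that array, Printex 90 day 1 replicate 5, miR-301a was called in each comparison. Its adjusted p was then 0.0015 for Printex 90 day 28 minus day 3, 0.00475 for vehicle day 28 minus day 1 and 0.0134 for vehicle day 28 minus day 3. The counts over all 306 were 2, 8 and 5 in that fit. In the same order, the differences of miR-301a stayed at -0.28, -0.26 and -0.23. Only their errors changed: the SEs were 0.086, 0.090 and 0.082 with the array and 0.050, 0.053 and 0.048 without it. Printex 90 and vehicle did not differ in the change from day 1 to day 28 beyond its error: the difference of differences was -0.09, with a 95% interval of -0.33 to 0.16 and an adjusted p of 0.87. Without that array it was 0.00, with an interval of -0.14 to 0.15 and an adjusted p of 0.997.

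**Figure D2:**
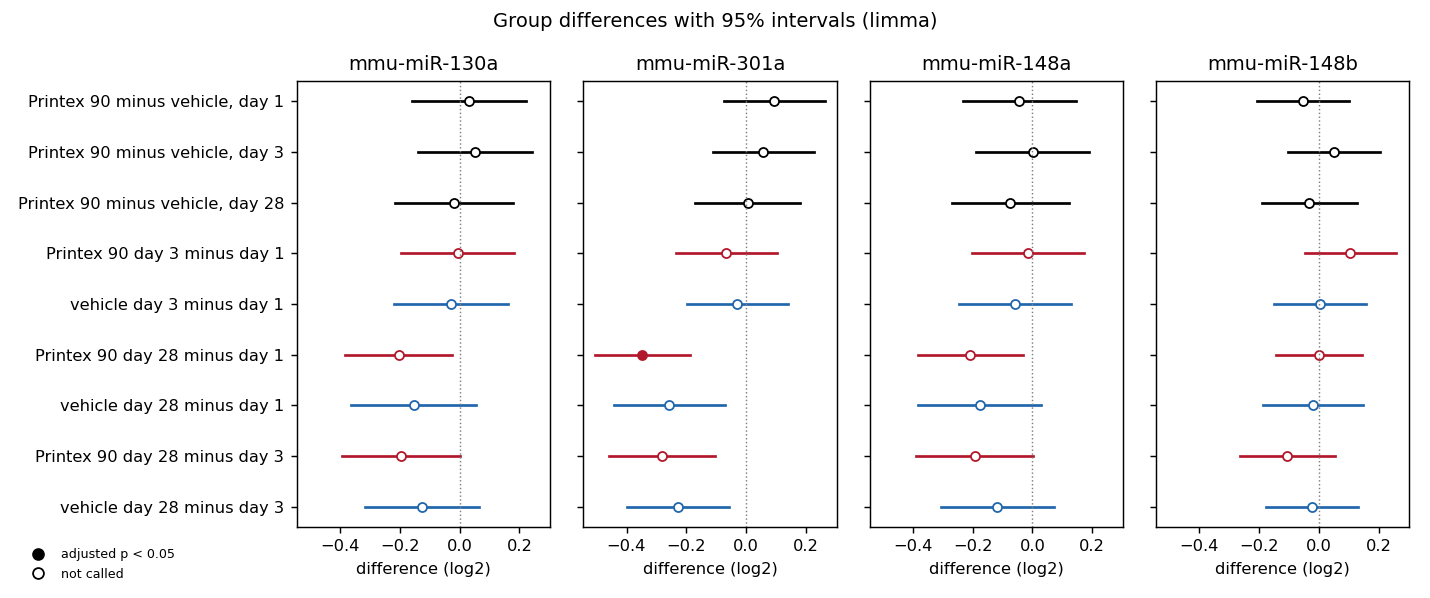
Differences between groups (log2) for each member, as the limma estimate and its 95% interval; filled points have an adjusted p under 0.05, black compares treatments, red and blue compare days in Printex 90 and in vehicle hearts. The single filled point is miR-301a in Printex 90 hearts, day 28 minus day 1, at -0.35.

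The fall of miR-301a was present on both of its probes, each printed as 20 spots. Probe 1 averaged 7.07 on day 28 and 7.42 on day 1 in Printex 90 hearts, and probe 2 averaged 5.80 and 6.14 on those days, with no overlap on either. Without replicate 5 the day 1 means were 7.33 and 6.05, and the differences -0.26 and -0.25, again with no overlap. In vehicle hearts the day 28 minus day 1 differences were -0.25 and -0.27, again with no overlap. Against day 3, both probes overlapped in vehicle hearts and neither did in Printex 90 hearts. Overlap was not counted over all probes of the array. Over all arrays, however, neither probe by itself kept the days apart: on probe 1 the highest day 28 heart was at 7.20 and the lowest other heart at 7.16, and on probe 2 these were 5.89 and 5.85. The probes correlated at r = 0.91 over 29 arrays.

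In the submitters' value table, which also holds the Printex 90 day 3 mouse with no scanner signal here, miR-301a overlapped too, with 6.98 to 7.34 on day 28 and 7.12 to 7.69 on days 1 and 3. The arrays were spread over 4 slides that each held several groups. Within slides, the Printex 90 day 28 minus day 1 difference of miR-301a was negative in 4 of 4 slides, between -0.47 and -0.25, or between -0.31 and -0.18 without replicate 5 of day 1, and the vehicle difference in 3 of 3, between -0.34 and -0.17. With slide as a fixed block the Printex 90 difference was -0.34, with an adjusted p of 0.0115 by limma.

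**Figure D3:**
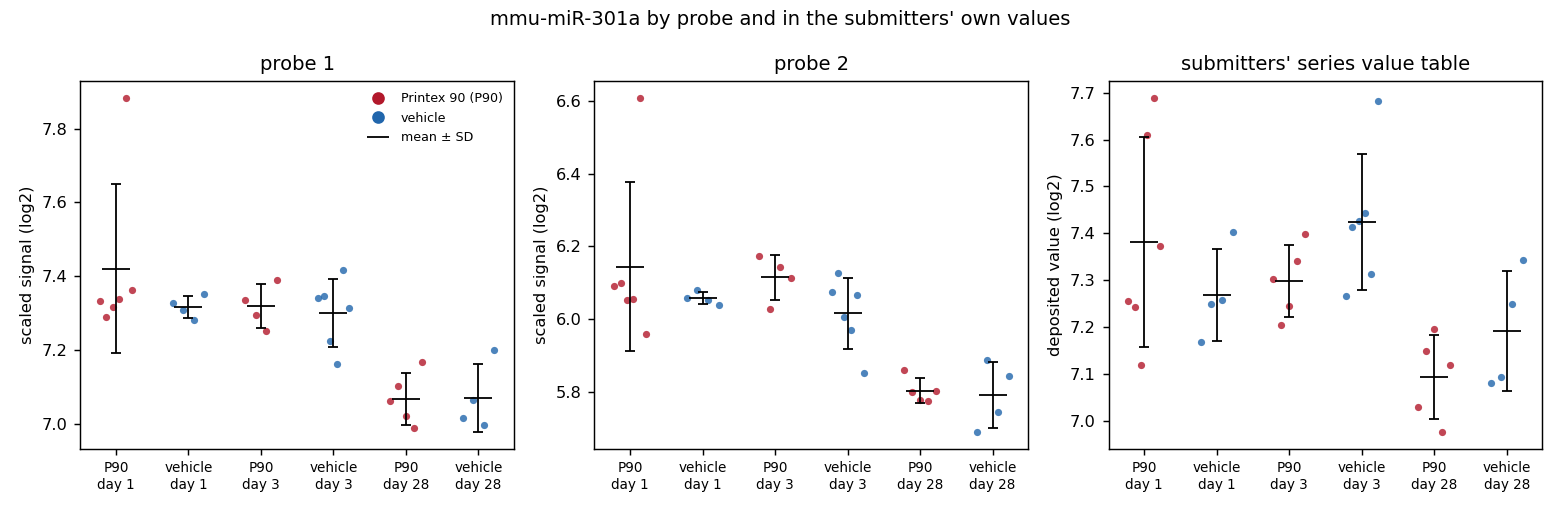
MiR-301a by treatment and day on each of its 2 probes (scaled signal, log2) and in the submitters' value table (log2), each point 1 heart, with mean and SD. The day 28 groups are the lowest in all 3 panels, and the overlap with the earlier days is widest in the value table, 6.98 to 7.34 against 7.12 to 7.69.

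Of the 16 tested markers of cell types, 0 were called in any comparison of day 28 with day 1 or day 3. In Printex 90 hearts the day 28 minus day 1 difference was -0.26 for miR-143 and -0.18 for miR-145. Without replicate 5 of day 1 these smooth muscle differences were 0.03 and 0.04. In vehicle hearts they were -0.06 and -0.08. The summed signal of both miRNAs ran from 9.92 to 10.25 on day 28 and from 9.91 to 11.72 on day 1 in Printex 90 hearts (to 10.10 without replicate 5), and from 10.03 to 10.18 and 10.09 to 10.22 on these days in vehicle hearts.

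Both red cell miRNAs measured had lower day 28 means in both treatments, with differences from day 1 of about the size of that of miR-301a or larger. For miR-144 the difference was -0.42 in Printex 90 hearts (-0.31 without replicate 5) and -0.33 in vehicle hearts. For miR-451 it was -0.28 in Printex 90 hearts (-0.19 without replicate 5) and -0.23 in vehicle hearts. Against day 3, miR-144 differed by -0.25 and miR-451 by -0.10 in Printex 90 hearts. In vehicle hearts miR-144 differed from day 3 by -0.76 (adjusted p = 0.237) and miR-451 by -0.70 (adjusted p = 0.271), both larger than the -0.23 of miR-301a. Of the 4 leukocyte miRNAs, 2 were lower there, miR-142-5p by -0.40 (adjusted p = 0.396) and miR-142-3p by -0.37 (adjusted p = 0.725). MiR-150 and miR-223 were higher there, by at most 0.07. The summed signal of the red cell miRNAs ran from 13.57 to 14.65 on day 28 and from 13.70 to 14.74 on day 1 in Printex 90 hearts, and from 13.37 to 13.66 and 13.45 to 14.02 on these days in vehicle hearts. Relative to day 1, lower day 28 means were found for 2 of 4 leukocyte miRNAs in each treatment, for 2 of 5 cardiomyocyte miRNAs in Printex 90 and 0 of 5 in vehicle hearts, and for 0 of 2 endothelial miRNAs in each. The liver miRNA miR-122 differed by -1.05 in Printex 90 hearts and 0.10 in vehicle hearts. The part of these markers in the result was not tested. In sections, fewer cells of a type and less RNA per cell cannot be told apart.

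The same array stood apart for miR-301a. At 7.25 it lay 0.55 above the median of the other 5 Printex 90 day 1 hearts, with all 19 usable spots of probe 1 and all 20 of probe 2 above the highest other heart of its group. In that comparison miR-301a ranked 20 of 306, while miR-143 ranked 3 and miR-145 ranked 4, with excesses of 1.75 and 1.33. The other members did not stand out there, with excesses of 0.04 for miR-130a, 0.02 for miR-148a and -0.01 for miR-148b.

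MiR-130a, which shares its seed with miR-301a, had lower means on day 28 in both treatments, but its groups overlapped. Printex 90 hearts had 10.25 to 10.54 on day 1 with a median of 10.31, and on day 3 they had 10.46, 10.11, 10.33 and 10.45. On day 28 they had 10.06, 10.22, 10.05, 10.05 and 10.32. Vehicle hearts had 10.37, 10.22, 10.30 and 10.37 on day 1. They had 10.09 to 10.47 on day 3, with a median of 10.27, and 10.00, 10.17, 10.04 and 10.43 on day 28. Of the 9 day 28 hearts, 5 lay below the lowest heart of days 1 and 3.

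The day 28 minus day 1 difference of miR-130a was -0.20 ± 0.09 (SE) in Printex 90 hearts and -0.15 ± 0.10 in vehicle hearts, with adjusted p-values of 0.611 and 0.755 by limma. Within slides that difference was negative in 3 of 4 slides in Printex 90 and 2 of 3 in vehicle hearts. On slide 4 it was 0.02 and 0.06. None of the neighbouring groups in the order of miR-130a levels differed by more than the larger SD of the pair. Its probes correlated at r = 0.99.

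MiR-148a resembled miR-130a in this. Printex 90 hearts had 9.38 to 9.68 on day 1 with a median of 9.59, and on day 3 they had 9.51, 9.38, 9.63 and 9.71. On day 28 they had 9.48, 9.13, 9.30, 9.36 and 9.56. Vehicle hearts had 9.61, 9.47, 9.68 and 9.72 on day 1. They had 9.37 to 9.73 on day 3, with a median of 9.58, and 9.35, 9.42, 9.31 and 9.68 on day 28. The days overlapped, and 5 of the 9 day 28 hearts lay below the lowest heart of days 1 and 3.

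Its day 28 minus day 1 difference was -0.21 ± 0.09 (SE) in Printex 90 hearts and -0.18 ± 0.10 in vehicle hearts, with adjusted p-values of 0.611 and 0.755 by limma. Within slides that difference was negative in 4 of 4 slides in Printex 90 and 3 of 3 in vehicle hearts. Neighbouring groups in the order of miR-148a levels differed by less than the larger SD of each pair. Its probes correlated at r = 0.99 over 29 arrays.

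MiR-148b, which differs from miR-148a at 2 bases, had day 28 means close to those of day 1. Printex 90 hearts had 6.71 to 6.87 on day 1 with a median of 6.78, and 6.80, 6.86, 6.90 and 6.99 on day 3. On day 28 they had 6.79, 6.61, 6.77, 6.77 and 6.98. Vehicle hearts had 6.81, 6.78, 6.86 and 6.88 on day 1. They had 6.66 to 6.96 on day 3, with a median of 6.86, and 6.72, 6.82, 6.67 and 7.04 on day 28. All groups overlapped, and 1 of the 9 day 28 hearts lay below the lowest heart of days 1 and 3.

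On average, miR-148b was at 6.78 ± 0.05 in Printex 90 hearts on day 1 (SD, n = 6), 6.89 ± 0.08 on day 3 (n = 4) and 6.78 ± 0.13 on day 28 (n = 5). Vehicle hearts averaged 6.83 ± 0.05, 6.84 ± 0.11 and 6.81 ± 0.16 on these days (n = 4, 6 and 4). The day 28 minus day 1 difference was 0.00 ± 0.07 (SE) in Printex 90 hearts and -0.02 ± 0.08 in vehicle hearts, with adjusted p-values of 0.995 and 0.926. The values rest on 1 probe, since the other was detected on 17 arrays and on at most 3 of any group, and was left out.

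MiR-152 has the miR-148 seed and is the detected relative that is not one of the 4. It averaged 7.90 ± 0.13 on day 28 (SD, n = 5) and 7.88 ± 0.06 on day 1 (n = 6) in Printex 90 hearts, and 7.97 ± 0.23 and 7.88 ± 0.08 on these days in vehicle hearts (n = 4 each). Its day 28 minus day 1 differences were 0.03 and 0.09, with 95% intervals of -0.17 to 0.23 and -0.15 to 0.32. Lower means on day 28 than on day 1 in both treatments were thus found for 3 of the 5 guide arms measured, in both seed groups. The share of all 306 tested miRNAs that were lower in both was not counted. In single treatments, 81 of 306 were lower in Printex 90 and 175 of 306 in vehicle hearts. Whether the family members differ from each other in their day 28 differences was not tested.

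**Figure D4:**
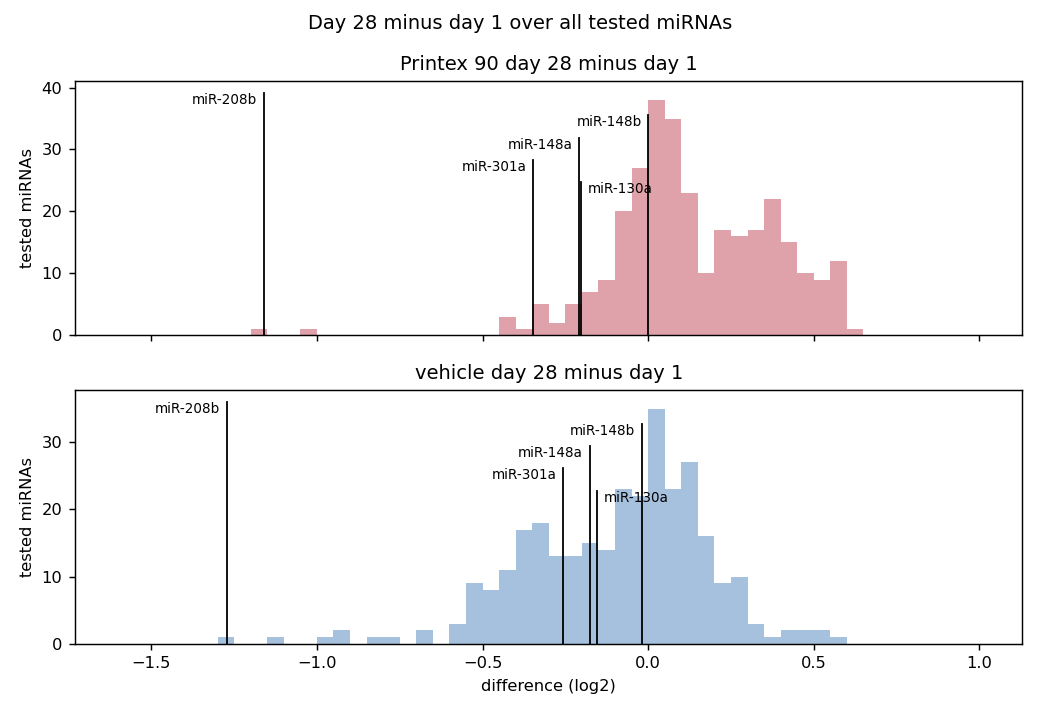
Number of tested miRNAs by their day 28 minus day 1 difference (log2), in Printex 90 hearts above and vehicle hearts below, with the members and miR-208b marked by lines. The median over all 306 was 0.10 in Printex 90 and -0.05 in vehicle hearts, and miR-301a lay at -0.35 and -0.26.

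Set against all miRNAs, the median member difference for day 28 minus day 1 was -0.21 in Printex 90 hearts and -0.17 in vehicle hearts, while the median over the 306 was 0.10 and -0.05. Of all tested miRNAs, 81 of 306 had a lower mean on day 28 in Printex 90 hearts and 175 of 306 in vehicle hearts, against 3 of 4 and 4 of 4 members. For day 28 minus day 3 the members' median was -0.19 in Printex 90 and -0.12 in vehicle hearts, beside 0.09 and 0.10 over all. Comparisons that share a day share its arrays, so their values are not independent. Between day 3 and day 1, 0 of 4 members and 0 of 306 miRNAs (0%) were called in either treatment, where 0 of 306 in Printex 90 and 18 of 306 in vehicle hearts had an unadjusted p under 0.05. The member differences there were at most 0.11 in size.

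MiR-148a and miR-148b varied together over the hearts. Over 29 arrays Pearson's r was 0.75 and Spearman's rho 0.73, with permutation p-values of 1e-05, the smallest that 100000 resamples can give, and of 6e-05 after adjustment over the 6 pairs of members. It was 0.70 without the 2 farthest arrays and 0.86 after the group means were subtracted. Within single slides of 6 to 8 arrays r was 0.22 to 0.76, and none of the 4 slides' adjusted permutation p-values was under 0.091. Under quantile normalization it was 0.07. Both values share the scaling of their array, and its part in r was not tested. The 2 miRNAs also share all but 2 bases, and signal of 1 on the probe of the other was not tested.

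MiR-130a was correlated less closely with miR-148a (r = 0.64, rho = 0.69, adjusted permutation p of 0.00072 and 0.00024) and with miR-148b (r = 0.52, rho = 0.53, 0.00426 and 0.0045). Without the 2 farthest arrays these r were 0.58 and 0.44, and within slides they ran from 0.35 to 0.71 and from 0.09 to 0.63, where none passed the threshold. They were 0.50 and 0.57 after the group means were subtracted. Within the 20 hearts of days 1 and 3 they were 0.42 and 0.36. Shifts between days or slides that both miRNAs of a pair share also enter the pooled r and its p-values. The miRNAs of these pairs also share the scaling of their array, and its part in these r was not tested. Their r under other scalings is not given here. For comparison, the median r over all 46665 pairs of tested miRNAs was 0.06 and the 75th percentile 0.37. For the pairs of miR-301a with the other members no test of a pooled r is given, because its day 28 hearts form a cluster of their own. The adjustment over the 6 pairs includes them.

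The miRNAs whose signals were most like each member over the 29 arrays were listed by r, as a description. For miR-130a they were miR-107 (0.84), miR-103 (0.82) and miR-19b (0.80). For miR-148a they were miR-28c (0.81), miR-28 (0.77) and miR-148b (0.75), and for miR-148b they were miR-350 (0.76), miR-148a (0.75) and miR-195 (0.73). For miR-301a they were miR-28 (0.79), miR-143 (0.68) and miR-145 (0.67).

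The list of miR-301a depended on 1 heart. Without Printex 90 day 1 replicate 5, its r with miR-143 was 0.21 and with miR-145 0.28, at ranks 57 and 38 among the other tested miRNAs. The list was then led by miR-208b (0.86), miR-181c (0.73) and miR-130a (0.69), of which miR-208b shares the separation of day 28 from the earlier days. With all 29 arrays the r of miR-301a and miR-208b was 0.67. These r hold the step between the earlier hearts and day 28. Within the 19 hearts of days 1 and 3 left without replicate 5, the r of miR-301a was 0.39 with miR-208b, 0.15 with miR-181c, 0.44 with miR-130a, 0.07 with miR-28, 0.37 with miR-143 and 0.32 with miR-145. Within the 9 day 28 hearts they were -0.33, 0.43, 0.87, 0.80, -0.04 and 0.35 in the same order.

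**Figure D5:**
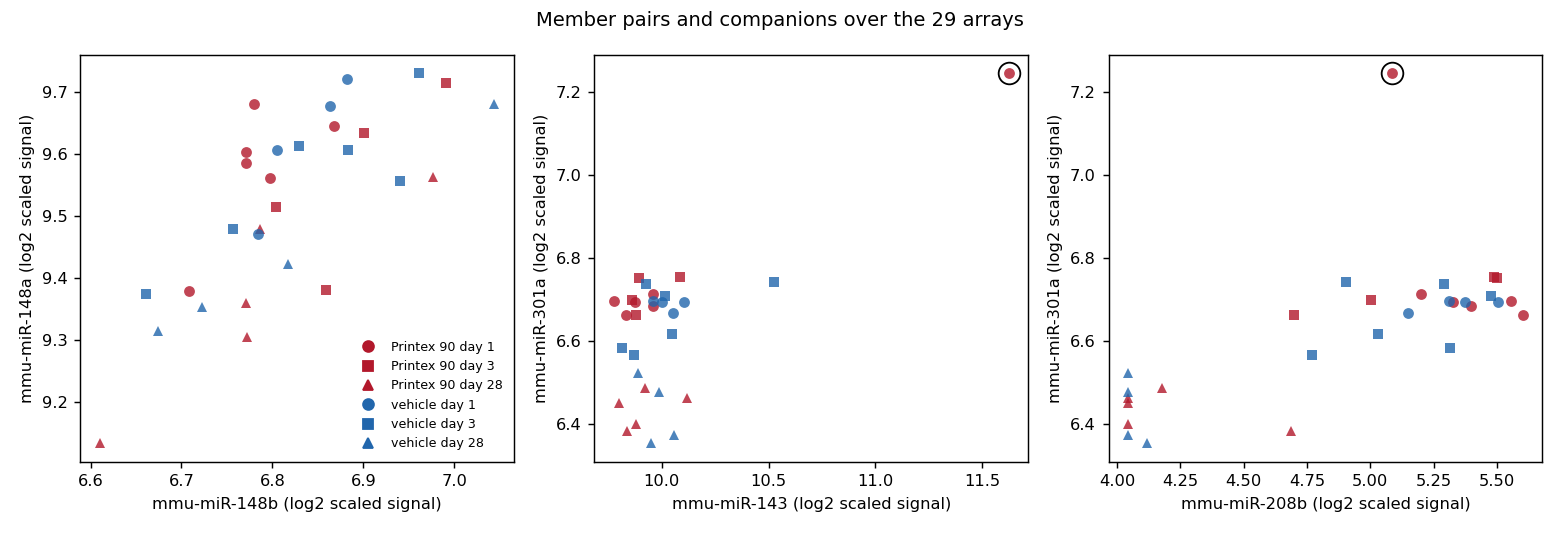
Each point is 1 heart, with scaled signals (log2) on both axes, colour for treatment and shape for day, and Printex 90 day 1 replicate 5 ringed. MiR-148a follows miR-148b (r = 0.75), the ringed heart alone joins high miR-143 to high miR-301a, and the day 28 hearts lie low for both miR-208b and miR-301a.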

How the data were processed

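The 4 names, the marker lists, tests and alternatives were chosen with earlier results of these data known. Per the file headers, 1-colour Agilent images went through Feature Extraction 10.7.3.1 and the deposited files hold background-subtracted signal intensity per spot. The authors' deposited value table holds log2 intensity per miRNA; its column medians lie between 5.78 and 5.82 (Spearman correlation with the median signal per miRNA at least 0.995), and how it was scaled is not given in the sources used here. It served as an alternative. The scanner file of Printex 90 day 3 replicate 3 lists names without signals, so 29 arrays entered.

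Processed signal was averaged over each probe's spots, leaving out control and outlying spots. Each array was divided by its 75th percentile over 418 probes, those detected everywhere; signals under 16.5 were raised to it, and log2 was taken. Probes seen on 4 or more arrays of some group (621) were averaged per miRNA, giving 306 miRNAs. The 6 group means were fitted together in limma 3.58.1 (R 4.3.3), with 13 two-sided contrasts and Benjamini-Hochberg adjustment over 306, at a threshold of 0.05; "called" means past it. The fit was tested on simulated data with independent noise and a shift larger than any member difference here. That test does not cover differences of their size or effects of slide. Named were the members, their relatives by array name, markers, and the 3 miRNAs most like each member by Pearson's r; miR-208b, miR-181c and the heart left out for comparison were singled out after their values were seen. RefSeq sequences are of GRCm38.p6. Replicate numbers follow the order of deposit. The number of arrays limits the precision.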

Additional observations from a re-analysis of the deposited data

Results flagged for a closer look

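Of 24 groups of the 4 members, 2 held a heart far from the rest of its group by Dixon's criterion, and chance flags about 1 in 20 groups. For miR-301a, Printex 90 day 1 replicate 5 was at 7.25, where the next highest heart of its group was at 6.71 and the lowest at 6.66, so its gap took 0.913 of the range. Its part in the group differences is given above, and what set it apart was not tested. For miR-301a in vehicle mice on day 1, replicate 3 was at 6.67, the lowest of a group that ended at 6.70. That group spans so little that its SD is 0.01, so this gap is small in size, 0.02 to 0.03 on the log2 scale.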

How the results depend on the processing

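MiR-301a was lower on day 28 in all 4 comparisons of days under the 13 alternatives and without any 1 array, between -0.55 and -0.19 for Printex 90 day 28 minus day 1 and between -0.43 and -0.08 for vehicle day 28 minus day 1. Of 672 member values under the alternatives, 574 kept their call and, where not called, lay within the residual SD of the reported value, 92 lay farther off and 6 lost their call, those of miR-301a given above; signs turned in 85, none of them of a called difference. No scaling put the median of all miRNAs at -0.24 for Printex 90 minus vehicle on day 1, against -0.07. In the order Printex 90 day 28 minus day 1, Printex 90 day 28 minus day 3, vehicle day 28 minus day 1 and vehicle day 28 minus day 3, the counts called of all tested miRNAs were 4, 1, 6 and 2. With the 75th percentile over all probes they were 1, 0, 1 and 0; with quantile normalization 1, 0, 2 and 0; with no scaling 0, 0, 0 and 0; with normexp 0, 0, 3 and 0; with the groups compared alone 1, 0, 2 and 1. In these 5 settings and with the value table, 0 members were called for Printex 90 day 28 minus day 1. For Printex 90 against day 1, vehicle against day 1 and vehicle against day 3, the value table gave 1, 2 and 1; the brightest probe gave 2 for Printex 90 against day 1 and 1 for vehicle against day 3. For Printex 90 and vehicle against day 3, no filter (427 miRNAs) gave 2 and 5 and slide as a fixed block 2 and 4. Probes detected on every array gave 0 for Printex 90 against day 3, and slide as a random block and the total gene signal gave 4 each for vehicle against day 3. Without 1 array each, the counts ran from 1 to 4, 1 to 2, 3 to 8 and 1 to 5, and the members called from 0 to 1 in each. The count for Printex 90 day 28 minus day 1 was 1 or 2 without any of 19 of the 29 arrays, and that for vehicle day 28 minus day 3 changed by over 1.5 times without any of 16. The count of 8 came without Printex 90 day 1 replicate 5 and that of 3 without vehicle day 28 replicate 4. Within slide 4, r of miR-301a turned to -0.80 with miR-148b (0.19 over all arrays), to -0.26 with miR-130a (0.56) and to -0.20 with miR-148a (0.52). Normexp used the median pixel signal in place of the mean. The causes were not tested. No paired analysis was made, since each mouse gave its own array and replicate numbers, which follow the order of deposit, mark no pairs.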
